A study of Xenopus laevis with 4 samples.

Results

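The regions described here are tight clusters of neighbouring ETS2 binding regions in frog embryos. They are common regions, called as peaks in both chromatin immunoprecipitation (ChIP-seq) libraries, that lie in runs of 4 or more on the chromosomes of Xenopus laevis. A run joins neighbours on the same chromosome while the gap between the end of one and the start of the next is under 5000 bp. This gave 5705 regions in 1127 runs, out of 55441 common regions on chromosomes (10.3%) and 61137 in all. They were compared with the 32282 regions in runs of 1, called single regions here, and the other 17454 chromosome regions stood in runs of 2 or 3.

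All 4 libraries were made from whole embryos that had received 750 pg of mRNA for ETS2 with a triple FLAG tag, a short peptide that the antibody binds, and that were collected at stage 11.5, in mid-gastrulation. Of these, 2 are ChIP libraries made with the FLAG antibody, called library 1 and library 2, and 2 are inputs made without antibody. The protein came from injected mRNA, so the map is that of added ETS2. ChIP from embryos without the tagged protein was not analysed here, and the labels do not state if separate batches of embryos were used.

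ETS2 belongs to the ETS family of transcription factors, which bind DNA through a shared winged helix-turn-helix domain and are known nuclear targets of FGF and MAP kinase signalling. In the Xenopus gastrula this signalling takes part in forming and patterning the mesoderm. Several binding regions close together are a known feature of some regulatory DNA, where enhancers of a gene can lie side by side. The frog is an allotetraploid in which each L chromosome has an S partner from a different ancestral species. Coordinates follow the authors' files without a named genome build, and no gene or sequence was assigned to them.

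Most clusters were small and short. Runs of exactly 4 regions numbered 621, runs of 5 numbered 241, runs of 6 to 9 numbered 229, and 36 runs held 10 or more regions. The number of runs fell with every added region up to 11, and the largest run, with 35 regions, stood well apart from the next, which held 19. The span of a run, from the start of its first to the end of its last region, had a median of 9368 bp (interquartile range 7058.5 to 12173.5) and reached from 2272 to 81264 bp. Together the spans covered 11.7 Mb, or 0.466% of the chromosomes measured up to their last peak, and held 10.3% of the common regions on chromosomes. The rule picks regions that lie close together, so the smaller share of sequence is by construction.

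**Figure D1:**
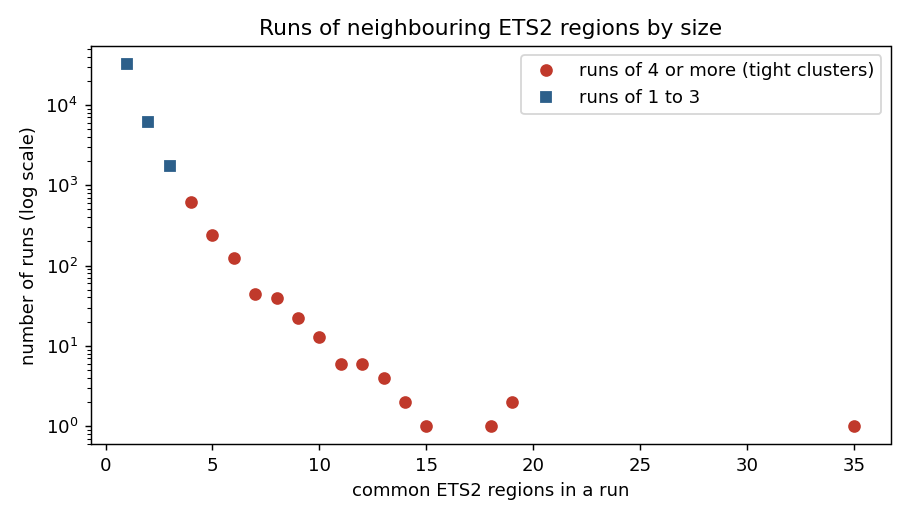
Number of runs (vertical axis, log scale) by the number of common ETS2 regions in a run (horizontal axis); circles are runs of 4 or more and squares are shorter runs. The numbers drop from 621 runs of 4 to 1 run each of 15, 18 and 35 regions, and 2 runs hold 19.

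Inside the clusters, most of the sequence lay between regions and not in them. Regions covered a median of 28.4% of the span of their run (22.7 to 36.6%), and 13 runs were covered to over 75%. The gap between neighbours had a median of 1525 bp (617 to 2852.75, over 4578 gaps). Of these gaps 1704 (37.2%) were under 1000 bp and 387 were under 200 bp, and no 2 regions in a cluster touched. Gaps in a run were of uneven length, with a median coefficient of variation of 0.704 (0.519 to 0.909), and 9 of the 1127 runs had a value under 0.1.

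The 10 runs with the most regions were found on 2L, 2S, 3L, 6L, 6S, 7S and 9_10L. Peak values below are those the authors gave each peak, taken to be −log10 of p or q, and a region takes the value of its highest peak in each library. A percentile rank places that value among all peaks of the same library, and the mean rank is the mean over both libraries. Peak values are not comparable in size between the libraries, so the ranks are used where both are combined. A region is called top-ranked where its mean rank was in the top 10% of the chromosome regions, at 92.9 or above, which is by construction 10% of them.

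The largest run lay on 2L at 148370543 to 148451806 and held 35 regions with a median width of 644 bp. Peak values in it ran from 3.00 to 60.8 in library 1 (median 9.26) and from 7.13 to 168 in library 2 (median 29.5). Strong and weak regions were interspersed over its first part, as the plot of peak values along this run shows. All top-ranked regions except the last had their midpoint within 41.3 kb of the start, and the last was at 65.5 kb. Of its 35 regions 8 were top-ranked, while 11 had a mean rank under 50, and the SD of the mean rank within the run was 24.3. Within this run the libraries ordered the regions alike, with a rank correlation of peak values of 0.88 over the 35 regions, which share their peak-calling background and are not independent.

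**Figure D2:**
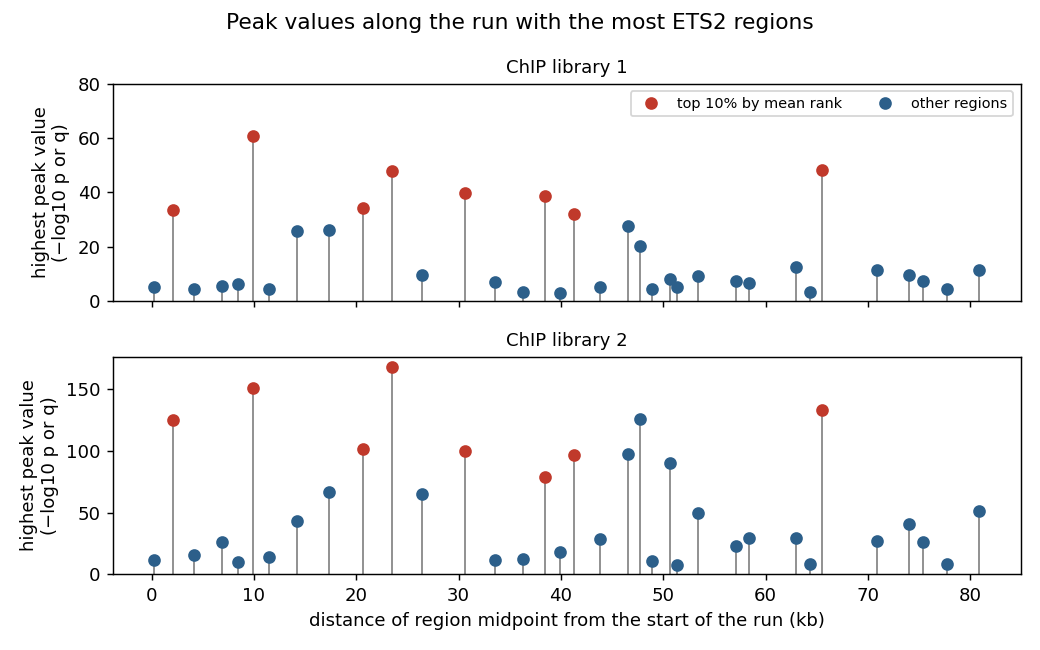
Highest peak value (−log10 p or q) of each of the 35 regions of the largest run in library 1 (upper panel) and library 2 (lower panel), against the distance of the region's midpoint from the start of the run in kb. The 8 top-ranked regions lie among weaker ones, and all except the last are within 41.3 kb of the start. The highest values are 60.8 in library 1 and 168 in library 2.

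The regions of the largest run can be followed from its start. The first, at 148370543 to 148371112, had a value of 5.28 in library 1 and 11.1 in library 2. The second, at 148372345 to 148373004, had 33.5 in library 1 and 125 in library 2, and so was among the top-ranked. The sixth was the strongest of the run by mean rank, which was 98.8. It lay at 148379739 to 148381086, was 1348 bp wide, and had 60.8 in library 1 and 151 in library 2. The eleventh, at 148393673 to 148394430, had the highest value of the run in library 2, at 168, with 47.9 in library 1. The last top-ranked region, at 148435620 to 148436420, had 48.3 in library 1 and 133 in library 2, and its neighbour before it had 3.48 in library 1 and 8.01 in library 2, the lowest mean rank of the run at 25.8. Between the regions of this run lay 19 further peaks of library 2 that no peak of library 1 overlapped, more than in any other of the 1127 runs. This run also had the longest span, and the count is not set against length.

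The next run in size, on 3L at 136442185 to 136476638, packed 19 regions into 34454 bp. Its peak values ran from 4.44 to 82.4 in library 1 and from 4.65 to 165 in library 2, and 8 of its 19 regions were top-ranked. Its median mean rank of 85.2 was the highest among the 10 largest runs, and its median gap of 742.5 bp was the shortest. The run on 7S at 67855708 to 67908081 also held 19 regions, over 52374 bp, and its values spanned 2.49 to 67.9 in library 1 and 10.6 to 161 in library 2. It had 5 top-ranked regions and lay alone, with the nearest other run 3398307 bp away.

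A pair of large runs stood side by side on 2S. One, at 128853961 to 128896600, had 18 regions, and the other, at 128811052 to 128841543, had 13, with 12417 bp between them. Each held 3 top-ranked regions, and the highest library 2 value was 105 in the run of 18 and 207 in the run of 13. Their midpoints were at 80.6% of the chromosome, and the run of 35 on the partner chromosome 2L was at 81.9%, both measured up to the last peak. The run on 2L nearest to them in relative position was a smaller one, with 4 regions at 80.6%. Another large run on 2S, at 63981990 to 64011864 with 14 regions, reached 100.8 in library 1 and 157 in library 2.

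Both partners of pair 6 and of pair 9_10 also carried a large run at similar relative positions. On 6L the run at 23730898 to 23774317, at 15.3% of the chromosome, held 15 regions, and on 6S the run at 19824510 to 19847571, at 15.4%, held 13. These were not each other's nearest runs in relative position. The nearest to the 6L run was a run of 4 at 15.4% on 6S. The nearest to the 6S run was a run of 4 at 15.5% on 6L. On 9_10L the run at 18101707 to 18134872, at 15.4%, held 13 regions with library 1 values of 6.45 to 93.5, and the lowest mean rank in it was 55.0. Its nearest counterpart on 9_10S, at 16687993 to 16729860 and 16.0%, held 13 as well. Positions are relative and no sequence was aligned, so that these runs are not shown to be the same locus.

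Of the 10 largest clusters, 1 held no top-ranked region. This was the run on 2L at 84198387 to 84227435, with 14 regions. Its values ran only from 1.95 to 11.4 in library 1 and from 3.03 to 46.8 in library 2, and its highest mean rank was 73.6. Its regions were also narrower, with a median of 390.5 bp.

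The pairs not yet named had smaller leading runs. On 8S the leading run, at 27193059 to 27210102, held 12 regions with values up to 94.8 in library 1 and 210 in library 2, and its mean ranks ran from 9.78 to 99.8. On 4L it was at 4862613 to 4890587 with 11 regions and values up to 36.7 in library 1 and 151 in library 2. Chromosome 1S carried 10 regions at 119784893 to 119804095, 3 of them top-ranked. Chromosome 5S carried 9 at 45988551 to 46010683, 1 of them top-ranked.

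The 5 members of highest mean rank outrank the other regions of their runs by this choice, and those other regions ranged widely in rank. The highest by mean rank was the second of 5 regions in a run on 3L, at 23196140 to 23196849, and it reached 112 in library 1 and 262 in library 2. Its 4 neighbours had mean ranks of 35.2 to 84.9. On 8L the region at 113343528 to 113344453 had 109 in library 1 and 257 in library 2, with neighbours at 41.9 to 89.0. The region on 5L at 17577603 to 17578726 had 118 in library 1 and 217 in library 2, with neighbours at 31.5 to 93.0. Of the remaining 2, the one on 8L at 118776364 to 118777279 had 131 (library 1) and 214 (library 2), with neighbours at 37.5 to 87.8. The one on 4L at 29771716 to 29773073 had 99.1 (library 1) and 254 (library 2), with neighbours at 40.4 to 94.9. In the runs on 5L and 4L the highest neighbour was thus top-ranked itself. None of these 5 was in a run of more than 6 regions, and neither were most members. Of the 5705 members, 2484 were in runs of 4, 1205 in runs of 5 and 744 in runs of 6.

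The share of top-ranked regions was larger among clustered than among single regions. Because peak values come from the same comparison of ChIP with input that placed the regions, the differences between clustered and single regions are descriptions and were not tested. Among clustered regions 969 of 5705 (17.0%, exact 95% binomial interval 16.02 to 17.99%) were top-ranked, and among single regions 2569 of 32282 (7.96%, 7.67 to 8.26%), against 10% of all chromosome regions. The share was higher in clustered regions on all 18 chromosomes, by 9.05 ± 2.65 percentage points (SD over chromosomes), with differences from 5.68 to 14.1. In the ranks of library 1 alone the top 10% held 17.0% of clustered and 7.98% of single regions, against 10% of all. In library 2 alone it held 16.3% and 8.03%, against 10% of all.

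Shares were closer at low ranks. In the lowest 10% by mean rank were 590 clustered regions (10.3%, 9.56 to 11.2%) and 3004 single regions (9.31%, 8.99 to 9.63%), against 10% of all. The median moved little in comparison with the top. The median mean rank was 69.9 (interquartile range 48.7 to 88.0) in clustered and 65.3 (47.5 to 81.3) in single regions. The tenth percentiles were 34.6 in clustered and 35.7 in single regions, and the ninetieth were 96.3 and 91.3. Clustered regions were thus more spread, with an SD of the mean rank of 23.3 against 21.0 in single regions.

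**Figure D3:**
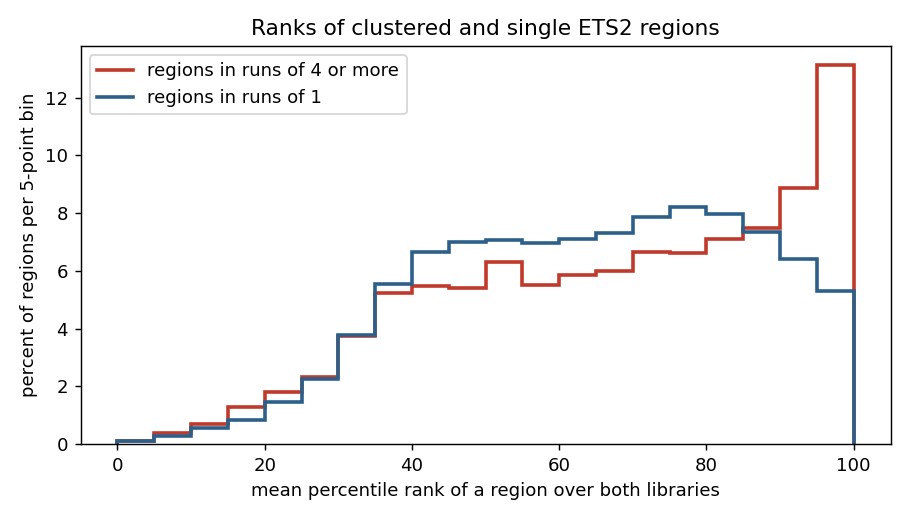
Percent of regions in each 5-point bin of mean percentile rank (horizontal axis), for regions in runs of 4 or more and regions in runs of 1. From 95 to 100 the bin holds 13.1% of clustered and 5.29% of single regions, and from 40 to 85 every bin holds a smaller share of the clustered regions.

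Among the common regions the difference in median rank was larger in library 1. There the median peak value was 10.7 (5.80 to 22.3) in clustered and 9.04 (5.25 to 16.3) in single regions, and the median percentile rank was 60.0 in clustered and 52.7 in single regions, higher on 18 of 18 chromosomes. In library 2 the median value was 38.2 (19.3 to 74.9) in clustered and 35.6 (19.4 to 60.8) in single regions, with median ranks of 81.5 and 80.3, higher on 15 of 18 chromosomes. The ranks differed by 7.33 points in library 1 and by 1.20 in library 2. With runs built from the peaks of 1 library this order turned, at 2.26 points in library 1 and 8.19 in library 2. The SD between the libraries, 4.34, was close to the mean-rank difference of 4.62. Over chromosomes the difference in median mean rank was 4.28 ± 2.91 (SD), from -0.62 on 3S to 8.54 on 2S, and it was above 0 on 16 of 18. The rank correlation between the 2 libraries was 0.84 over 5705 clustered and 0.74 over 32282 single regions, given without a p-value. Ranks were also more spread in clustered regions, and the part of this spread in the higher correlation was not tested.

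The share of top-ranked regions was larger in longer runs. It was 15.2% (13.8 to 16.6%) in runs of 4, 16.7% (14.6 to 18.9%) in runs of 5, 18.6% (16.7 to 20.7%) in runs of 6 to 9 and 22.0% (18.3 to 26.1%) in runs of 10 or more, and the intervals of neighbouring sizes overlap. Just outside the rule, in runs of 3, it was 12.7% (11.8 to 13.6%), and in runs of 2 it was 11.0% (10.4 to 11.5%). The median mean rank was 68.1 in runs of 4, just inside the rule, and 67.0 in runs of 3. Neighbours 4000 to 5000 bp apart had a median mean rank of 67.8 (1713 pairs), and those 5000 to 6000 bp apart had 67.3 (1526 pairs).

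Clustered regions were wider, and width moved with rank. The median width was 510 bp (375 to 697) in clustered and 446 bp (353 to 603) in single regions, a ratio of 1.14, and it was higher on all 18 chromosomes. The highest peak in a region was wider in both libraries, with medians of 260 bp in clustered and 232 bp in single regions for library 1, and 505 and 444 bp for library 2. Mean rank rose with width, with rank correlations of 0.63 in clustered and 0.57 in single regions. Within the widest quartile of all chromosome regions (627 bp and more), 37.2% (35.0 to 39.5%) of 1852 clustered and 23.1% (22.2 to 24.1%) of 7371 single regions were top-ranked. In the next quartile the shares were 15.6% (13.9 to 17.6%) and 9.54% (8.90 to 10.2%), in the one below they were 3.71% (2.67 to 4.996%) and 1.29% (1.07 to 1.55%), and in the narrowest they were 0.0816% and 0.0846%. The larger share in clustered than in single regions thus stood within the wider 3 of the 4 quartiles. Shares over all chromosome regions of a quartile, which include runs of 2 or 3, are not given here.

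The medians did not follow this at low width. In the narrowest quartile the median mean rank was 42.6 in clustered and 45.3 in single regions, and in the next wider quartile it was 61.1 and 64.3. Above the median width it was 74.7 and 73.8 in the narrower of both quartiles, and in the widest it was 88.0 and 82.2. Narrow clustered regions therefore ranked below narrow single ones, and wide clustered regions above wide single ones.

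The share of regions with several peaks of library 1 was also larger among clustered than among single regions. A common region with 2 or more peaks of library 1 occurred in 597 clustered regions (10.5%, 9.68 to 11.3%) and in 2261 single regions (7.004%, 6.73 to 7.29%), against 7.68% of all chromosome regions. Regions with 2 or more peaks of library 2 were rare, with 25 clustered (0.438%, 0.284 to 0.646%) and 72 single ones (0.223%, 0.175 to 0.281%), against 0.251% of all. Wider regions can hold more peaks, and the part of width in these shares was not tested.

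Clusters mixed strong and weak regions. The range of mean rank within a run had a median of 51.0 points (38.2 to 63.5), it was above 50 in 597 of 1127 runs (53.0%), and it was under 20 in 56. Differences within runs made up 77.2% of the sum of squares of mean rank over the 5705 regions, where 80.3% of the degrees of freedom lie within runs. Regions of the same cluster were therefore little more alike in rank than regions of different clusters. Neighbours in a cluster had a rank correlation of 0.04 over 4578 pairs, and all neighbours on the chromosomes had 0.02 over 55423 pairs.

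Clusters differed in their number of top-ranked regions, which filled 1 of them. No top-ranked region was found in 511 runs (45.3%), 1 was found in 377 (33.5%), and 2 or more in 239 (21.2%). The highest number in a run was 8. Every region was top-ranked in 1 run.

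Regions at the ends of a run ranked close to those between them. Regions between the ends had a median mean rank of 70.4, with 17.8% of 3451 top-ranked, and regions at the ends had 68.9, with 15.7% of 2254. In the 621 runs of 4, the strongest region was the first in 164, the second in 151, the third in 159 and the fourth in 147. By distance, the stronger of 2 neighbours had a median mean rank of 84.1 at gaps under 500 bp (935 pairs) and of 84.3 at gaps of 3000 bp or more (1041 pairs). At gaps between these it was 83.8 to 86.7. The weaker had 47.4 at gaps under 500 bp and 51.8 from 500 to 1000 bp. It had 54.4 from 1000 to 2000 bp, 52.3 from 2000 to 3000 bp and 53.6 at 3000 bp or more. The weaker thus ranked lowest beside its closest neighbours, without a steady rise at gaps above 1000 bp.

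Peaks that only library 2 called were denser in the gaps of clusters than beside single regions. Over all chromosomes such peaks made up 87578 of the 143158 library 2 peaks, so they are not particular to clusters. A library 2 peak with no overlapping peak in library 1 was not used by the rule, but it comes from the same comparison with input, so that the densities are a description. In the gaps inside runs (8.36 Mb) there were 1346 such peaks, or 161 per Mb. In the 5 kb on either side of single regions, without other common regions (314 Mb), there were 18446, or 58.7 per Mb, which gives a ratio of 2.74 (exact 95% interval 2.59 to 2.90, counting error only). The 5 kb beside runs lay between, with 114 per Mb. The density over whole chromosomes is not given here, so only these settings are compared. Gaps are under 5000 bp and have a common region at either end, whereas the flanks of single regions reach 5 kb from 1 region. The rule also places gaps where common regions are dense, and single regions where no other common region lies within 5 kb. The parts of this choice and of the distance in the ratio were not tested. The ratio was above 1 on all 18 chromosomes, at 2.73 ± 0.457 (SD), from 1.91 on 4S to 3.84 on 5L.

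**Figure D4:**
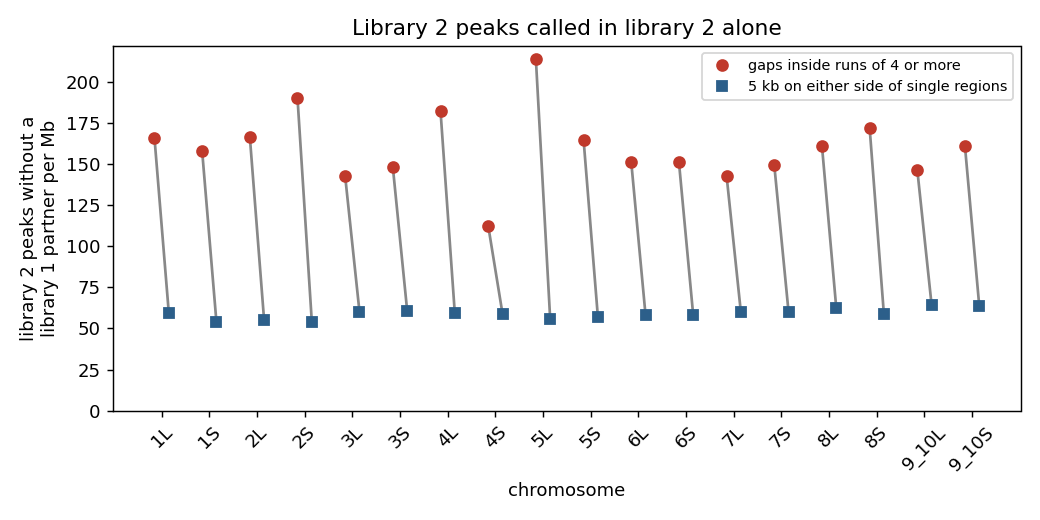
Library 2 peaks without a library 1 partner per Mb (vertical axis) on each chromosome, in the gaps inside runs of 4 or more (circles) and in the 5 kb on either side of single regions (squares). Values in runs lie from 112 to 214 per Mb and values beside single regions from 53.8 to 64.4, without overlap.

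These extra peaks were weak in both settings. Their median value was 5.85 in the gaps of runs and 6.40 beside single regions, at percentile ranks of 27.8 and 31.6 of library 2, and their median widths were 223 and 218 bp. Of the 1127 runs, 678 (60.2%) held 1 or more of them and 449 held none. Peaks of library 1 with no overlapping peak in library 2 were few, with 68 in the gaps of runs (8.13 per Mb) and 429 beside single regions (1.37 per Mb), a ratio of 5.96 (4.54 to 7.71).

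The clusters were largely present in each library's own list, as the rule makes likely. Of the clustered regions, 5439 (95.3%) overlapped a run of 4 or more library 1 peaks, and 5703 overlapped such a run of library 2. Of the single regions, 48 (0.149%) did so in library 1 and 3084 (9.55%) in library 2. Library 1 had 1741 such runs with 14.5% of its 62076 chromosome peaks, the largest of 38 peaks. Library 2 had 6367 runs with 24.9% of its 143158, the largest of 67. The list with more peaks thus had the larger share of them in runs.

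Every chromosome carried clusters, with a share of clustered regions from 8.15% to 13.5%. Chromosomes 9_10S (13.5%) and 9_10L (13.3%) had the highest shares, followed by 8S (11.6%), 8L (11.3%) and 6L (11.3%), and 3S (8.15%), 5S (8.37%) and 1L (9.10%) had the lowest. Per 100 Mb there were 70.4 runs on 9_10L, 66.9 on 9_10S, 63.6 on 8S and 63.3 on 8L, and 33.0 on 5S. Chromosomes with more common regions per Mb had higher shares, with a rank correlation of 0.63 and a Pearson correlation of 0.72 over 18 chromosomes, given as a description since close neighbours become more frequent where regions are dense. Several chromosomes departed from this order. Among them 6L had 20.3 regions per Mb and a share of 11.3%, 3L had 25.3 and 10.1%, and 7S had 22.5 and 9.33%.

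The L chromosomes had a slightly higher share of clustered regions than their S partners, and the difference lay close to the threshold of the test. There were 3304 clustered regions in 653 runs on L and 2401 in 474 runs on S chromosomes. The share was 10.6% ± 1.24 on L and 9.94% ± 1.68 on S chromosomes (SD over 9 chromosomes each). The mean difference over pairs was 0.702 ± 0.855 percentage points, L was higher in 6 of 9 pairs, and a two-sided exact permutation test, which flips the sign of each of the 9 differences, gave p = 0.0469. The difference was largest in pair 3, with 10.1% on 3L and 8.15% on 3S, and the order turned in pair 1 (9.10% on 1L and 9.51% on 1S), pair 8 (11.3% on 8L and 11.6% on 8S) and pair 9_10 (13.3% on 9_10L and 13.5% on 9_10S).

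**Figure D5:**
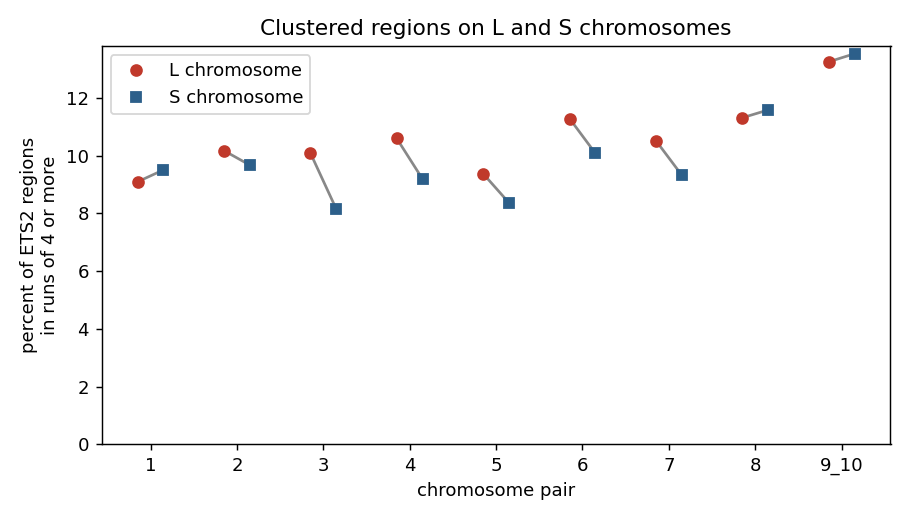
Percent of common regions in runs of 4 or more on the L (circle) and S (square) chromosome of each pair. L is above S in pairs 2 to 7 and below it in pairs 1, 8 and 9_10.

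The call ended when any one of pairs 2 to 7 was left out (exact permutation p = 0.0625 without pair 2 and 0.0938 without each of the other five), and it stood without pair 1, 8 or 9_10 (exact p = 0.0391 each). It also ended with gaps under 2000 bp (0.0572 points, exact p = 0.797), under 10000 bp (1.14 points, exact p = 0.0820) and in runs of 6 or more (0.317 points, exact p = 0.258). Runs built from the peaks of 1 library gave 1.18 points in library 1 and 2.10 in library 2 (exact p = 0.00391 each, the smallest that 9 pairs allow). The call stood in runs of 3 or more (1.64 points, exact p = 0.0273). Common regions were also denser on the L chromosome in 8 of 9 pairs, the exception being pair 7 (22.0 per Mb on 7L and 22.5 on 7S), and the part of density in this difference was not tested.

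Pooled over the 18 chromosomes, a larger share of clustered than of single regions lay near the start. The first 5% of a chromosome, up to its last peak, held 536 clustered regions (9.40%) and 1886 single regions (5.84%). The last 5% held 263 clustered (4.61%) and 1557 single regions (4.82%). Shares for each chromosome and over all chromosome regions are not given here, so the difference near the start is not shown chromosome by chromosome. Some clusters lay near another cluster: 139 runs (12.3%) had another run within 20 kb and 266 (23.6%) within 50 kb. Most did not, and the median distance to the nearest other run was 394 kb. A gap of 5000 bp or more ends a run, so a dense stretch can count as separate neighbouring runs. Shares for other regions are not given here, and whether clusters lay closer together than other regions was not tested.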

How the data were processed

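The authors deposited 1 peak list per ChIP library (69083 peaks in library 1, 157105 in library 2) and a list of 61137 common regions without values; every common region held a peak of each library. The deposited value per peak is unnamed and was taken to be a p-value or q-value on the −log10 scale from the lower limits of 1.33 and 1.31. Per the submitters' processing notes, Bowtie2 2.2.3 and MACS2 were used. Their roles and the genome build are not given in the sources used here. No gene was assigned, as no gene models known to be of that build were used here. Read depth is unknown: no reads were counted, and exact (Clopper-Pearson) 95% binomial intervals cover counting error only.

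Regions on the 18 chromosomes were sorted and joined into runs with gaps under 5000 bp, and each took its highest peak per library, ranked within that library's whole list. Peaks counted as overlapping from 1 bp on. Peaks were counted between regions by midpoint. A two-sided exact permutation test, flipping the signs of the differences of the 9 pairs, compared L with S chromosomes at a threshold of 0.05. Named regions are the 10 runs with most regions (shorter spans first in ties), the largest run of each other pair, the 5 members of highest mean rank and all regions of the largest run, of which some are given. The members and these choices were made with earlier results of these data known. Alternatives changed gaps, run sizes, peak selection, sequences and libraries. The run and sign-flip procedures were tested on simulated data. Python 3.11.15, numpy 2.4.6, scipy 1.17.1, pandas 2.3.3 and matplotlib 3.10.9 were used.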

Additional observations from a re-analysis of the deposited data

Results flagged for a closer look

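Clusters also occurred on unplaced scaffolds, which the comparisons above do not use. Of 5696 common regions on scaffolds, 413 (7.25%, exact 95% interval 6.59 to 7.96%) were in runs of 4 or more, against 10.3% on chromosomes. They formed 79 runs on 35 scaffolds, the largest with 16 regions on Scaffold20 at 4192163 to 4230908 and the next with 11 on Scaffold22 at 1877235 to 1889466. Their median mean rank was 69.2, against 63.5 in the 3982 single regions on scaffolds. A run cannot cross the end of a scaffold, and the part of this in the lower share of clustered regions there was not tested.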

How the results depend on the processing

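The leaving out of chromosome pairs, the omission of runs of 10 or more and the minimum value for library 2 peaks were chosen after seeing the data. The difference in median mean rank kept its direction in every setting tried and was 3.98 without runs of 10 or more. The extremes came from runs of a single library, with 2.26 points in library 1 and 8.19 in library 2. The share of regions in runs was 10.3%, and by construction it changed to 3.05% with gaps under 2000 bp, 21.2% under 10000 bp, 19.8% in runs of 3 or more and 3.64% in runs of 6 or more. It was 3.91% among regions above the median rank, 3.63% among those with 50% reciprocal overlap, and 14.5 to 24.9% with 1 library left out. The width ratio of 1.14 became 1.19 and 1.12 with gaps under 2000 and 10000 bp, 1.11 and 1.17 in runs of 3 or 6 or more, 1.16 with scaffolds, and 1.07 to 1.19 with 1 library left out. The L minus S difference lost its call with gaps under 2000 bp (0.0572 points, exact permutation p = 0.797) and 10000 bp (1.14, p = 0.0820), in runs of 6 or more (0.317, p = 0.258), above the median rank (0.243, p = 0.664) and with reciprocal overlap (0.138, p = 0.660). It kept its call at 1.64 points in runs of 3 or more (exact permutation p = 0.0273). It was 0.546 to 0.841 with single pairs left out, and 1.18 to 2.10 with 1 library left out. The density ratio of library 2 peaks was 2.42 with gaps under 10000 bp, 2.47 and 3.13 in runs of 3 or 6 or more, 2.59 above the median rank, 2.44 with reciprocal overlap and 2.21 for library 2 peaks above the median value. For these changes the cause was not tested. No paired test across ChIP and input libraries was possible from the peak lists. Unknown depth limits how far a cluster or a single region can be called complete.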

Other observations

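Gaps were nearly equal in a few runs, singled out after their values were seen. On 9_10S the 4 regions at 1435116 to 1449230 had a coefficient of variation of their gaps of 0.0112 around a median gap of 4127 bp. The 5 regions on the same chromosome at 1700159 to 1719663 had 0.0609 around 4182 bp. At the other end, the regions of a run of 4 on 9_10L at 79425928 to 79429861 covered 93.4% of its span, with a median gap of 101 bp.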
